A study of Mus musculus with 32 samples.

Results

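The 10 genes described here, Smarca4, Smarca2, Actl6a, Actl6b, Ss18, Ss18l1, Dpf2, Phf10, Dpf1 and Dpf3, encode alternative subunits of the BAF chromatin remodelling complex: its 2 ATPases, Smarca4 and Smarca2, and 8 subunits of families whose members are known to be exchanged when neural progenitors become neurons. They were taken by symbol from the 32285 genes of the deposited count tables, and each symbol matched 1 gene. The study profiled single cells of the dorsal telencephalon, the part of the embryonic brain that forms the cortex, with the medial wall removed, from wild type (WT) and Chd8 heterozygous (Chd8+/-, here Chd8 het) mouse embryos of strain C57BL/6J. Embryos, staged as E12.5, as E14.5, as E16.0 or as E17.5, were prepared one by one as sex-matched littermate pairs, which gave 4 libraries in each of the 8 groups of genotype and stage: 2 male (M1, M2) and 2 female (F1, F2). No group carries another allele or treatment. The labels do not describe the Chd8 allele beyond its name, and Chd8 encodes a chromodomain helicase that acts on chromatin. Each library is 1 embryo, so p-values below for stage and genotype measure the spread between embryos of a group. P-values between sets of cells of the same libraries were fitted with the library as a block. They measure how the difference between the sets varies between embryos, not how levels do.

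BAF complexes use the energy of ATP to slide or eject nucleosomes. In dividing neural progenitors the complex is known to hold Actl6a, Ss18 and either Phf10 or Dpf2, and on exit from the cell cycle these are replaced by the related proteins Actl6b, Ss18l1 and Dpf1 or Dpf3. Smarca4 and Smarca2 are the alternative ATPases, of which a complex holds one. In the text below Actl6a, Ss18, Phf10, Dpf2 and Smarca4 are called the progenitor partners and Actl6b, Ss18l1, Dpf1, Dpf3 and Smarca2 the neuronal partners. For the first 4 of each group this naming follows that background. The ATPases have no such assignment in it, and Smarca4 is listed with the progenitor and Smarca2 with the neuronal partners only so that they can be set side by side.

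Cells were placed in 3 marker gates by the presence of at least 1 unique molecular identifier (UMI, 1 counted RNA molecule) of a gene. Sox2 marks radial glia, Eomes intermediate progenitors and Neurod6 excitatory neurons. UMIs were summed over the cells of a gate in each library, and a level is given as CPM, the gene's UMIs scaled to a common total of all UMIs in that sum. Over the 32 libraries 138226 cells were retained, and the sums held 3454195 to 48464489 UMIs in the Sox2 gate, 2094340 to 16629736 in the Eomes gate and 4101547 to 32377313 in the Neurod6 gate. Fabp7, a radial glial gene, was at 4030 CPM in the Sox2 gate and 705 in the Neurod6 gate, and Tubb3, a neuronal tubulin, was at 560 and 2251.

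The gates overlap, because a cell can hold UMIs of several of these genes. Of the Eomes-detected cells 91.8% also held a Sox2 or Neurod6 UMI, and the same was true of 36.6% of Neurod6-detected and 39.0% of Sox2-detected cells. Among Neurod6-detected cells that share was 67.8% at E12.5 and 23.9% at E17.5. The edgeR tests and the partner shares were therefore also computed in disjoint gates, which keep only cells with UMIs of exactly 1 of the 3 genes, and the counts cell by cell and the correlations between genes were not. Endothelial cells (at least 2 Cldn5 UMIs), which should lack Neurod6, also held its UMIs. In WT these were 18 in 86 cells at E12.5, 52 in 30 at E14.5, 47 in 56 at E16.0 and 48 in 77 at E17.5. A single Neurod6 UMI therefore does not make a cell a neuron. Pairs of libraries shared at most 66 cell barcodes, and at most 1.3% of the barcodes of the smaller library. At E12.5 the Chd8 het libraries M1, F1 and F2 were shallower (20210276 to 41430011 UMIs) than the 4 WT libraries (49892224 to 66499864), whereas Chd8 het M2 had 64497571. At E17.5 WT M1, Chd8 het M1 and Chd8 het F1 stood apart: their Neurod6-gate sums correlated with each other (Pearson's r 0.71 to 0.76 over 4865 genes, after subtracting each gene's mean over the stage) and negatively with those of the other 5 libraries. Results that change without those 3 libraries are given with and without them. Other stages were not uniform either. At E14.5 the male libraries of both genotypes correlated with each other (r 0.47 to 0.87) and negatively with the female libraries (-0.26 to -0.79). No fit left out the libraries of 1 sex. Chd8 itself was lower in Chd8 het than in WT by log2 -0.27 (SE 0.07) in the Sox2 gate, -0.27 (SE 0.07) in the Eomes gate and -0.29 (SE 0.07) in the Neurod6 gate. None of these passed edgeR's quasi-likelihood test with Benjamini-Hochberg adjustment (adjusted p = 0.13, 0.055 and 0.14). The labels do not state how the allele alters the transcript, so how far 3′ tags can check the genotype label is not known.

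The Neurod6 gate was compared with the Sox2 gate first, to see how the partner subunits differ between neurons and progenitors. All 5 neuronal partners were higher in Neurod6-detected cells, by 1.73-fold for Dpf3 to 7.19-fold for Actl6b. Of the progenitor partners Actl6a, Ss18, Dpf2 and Phf10 were lower, by 1.27- to 1.65-fold, and Smarca4 was higher by 1.48-fold. All 10 genes passed the test, 6 higher and 4 lower, but so did 88.3% of the 15193 genes tested, 43.9% of them higher and 44.4% lower. With a change of at least 2-fold added, 3 of the 10 (Actl6b, Ss18l1 and Dpf1) and 23.2% of all genes tested were called. Within WT, the same contrast called 10 of the 10 genes at E12.5, E14.5 and E16.0 and 8 at E17.5, where 71.1%, 72.5%, 77% and 69.5% of all genes tested were called. The median absolute log2 fold change over all groups was 0.76 over the 10 genes and 0.44 over all genes tested. In disjoint gates all 10 were called in the same directions, beside 85.4% of all genes tested there, and 6 differences were over 1.5 times as large on the log2 scale: Actl6b, Ss18 and Ss18l1 as given below, Smarca2 (1.41), Smarca4 (1.05) and Dpf2 (-0.53). The test was edgeR's quasi-likelihood test on the summed counts with the library as a block, averaged over the 8 groups. In such sums, fewer cells with a transcript and less RNA per cell cannot be told apart.

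**Figure D1:**
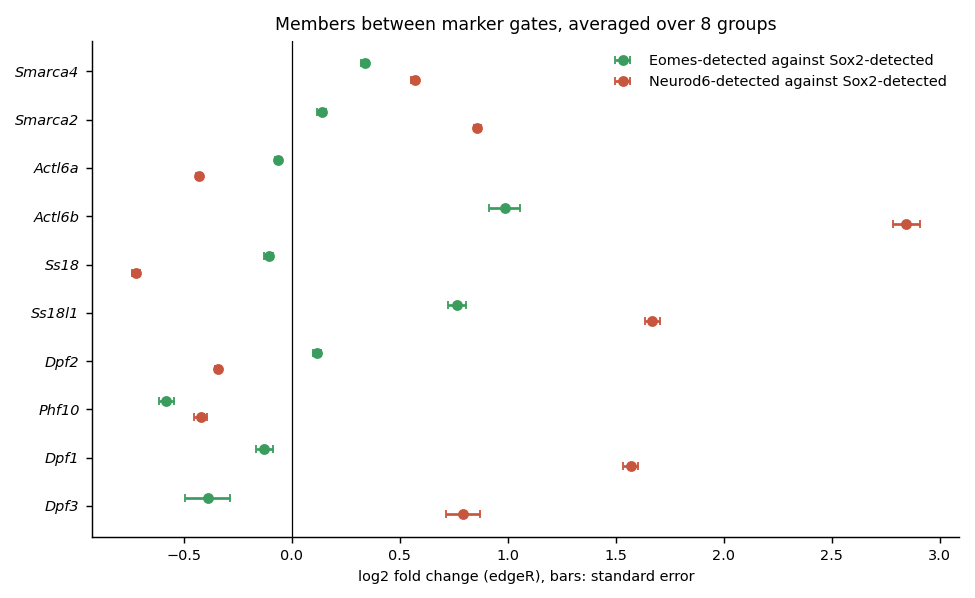
Log2 fold changes (x axis) of the 10 BAF genes (y axis) in Eomes-detected (green) and Neurod6-detected (red) against Sox2-detected cells, averaged over the 8 groups of genotype and stage; points are edgeR estimates and bars standard errors. Actl6b (2.85), Ss18l1 (1.67) and Dpf1 (1.57) lie farthest to the right for Neurod6, and the Eomes point of Dpf1 (-0.13) averages over stages of opposite direction.

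Actl6a and Actl6b encode the actin-related BAF53a and BAF53b subunits. Actl6a (ENSMUSG00000027671) lies on the plus strand of chr3:32706298-32726973 in GRCm38, and Actl6b (ENSMUSG00000029712) on the plus strand of chr5:137553517-137569582. Repression of Actl6a through its 3′ UTR by miR-9-3p (also called miR-9*) and miR-124 is known as one way in which the switch is brought about. The microRNA and the stretch of the Actl6a 3′ UTR that pairs with its seed are shown because they carry this link. Capitals mark the seed (bases 2 to 8) in the first and its match in the second.
mmu-miR-9-3p: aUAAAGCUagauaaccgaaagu
Actl6a 3′ UTR: ctcaacgtctgtAGCTTTAgtaca
The microRNA sequence is from RefSeq. The stretch is chr3:32726628-32726651 on the plus strand (GRCm38, GENCODE M21 transcript), in the terminal exon, and the match in capitals begins at base 38 of a 3′ UTR of 371 bases. AGCTTTA was searched on the transcribed strand only, in the longest annotated 3′ UTR of each gene. It occurred once in Actl6a, once in Smarca2 and not in Smarca4, Actl6b, Phf10, Dpf2, Dpf1, Dpf3 or Ss18l1, while Ss18 was not searched. It occurred in 11.1% of 20383 genes, and in 2.69% of the 1898 whose 3′ UTR is of similar length to that of Actl6a. A match is a description of letters, and microRNA levels were not measured.

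Actl6a was lower in neurons than in progenitors by a small factor. In the WT Sox2 gate it was at 290, 319, 290 and 276 CPM in M1, M2, F1 and F2 at E12.5 and at 202, 183, 200 and 202 at E17.5. In the WT Neurod6 gate it was at 239, 275, 240 and 227 at E12.5 and at 135, 134, 135 and 148 at E17.5. At E17.5 every Neurod6 value lay below every Sox2 value, and Actl6a was lower in the Neurod6 gate in 32 of 32 libraries. The mean over libraries was 193 against 258 CPM, a log2 fold change of -0.43 (SE 0.01, edgeR adjusted p = 6.3e-39) and -0.60 (SE 0.03) in disjoint gates.

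Actl6b showed the widest separation. In the WT Sox2 gate at E12.5 it was at 4.41, 5.31, 4.99 and 3.53 CPM, and in the WT Neurod6 gate of the same libraries at 78.4, 56.3, 73.0 and 79.1. At E17.5 it was at 26.6, 48.0, 38.1 and 30.1 in the Sox2 gate and at 112, 150, 141 and 120 in the Neurod6 gate. The gates did not overlap at either stage, and the Neurod6 value was the higher in 32 of 32 libraries. The log2 fold change was 2.85 (SE 0.06, edgeR adjusted p = 8.1e-44). Averaged over the 8 groups, Actl6b was at 171 CPM in Neurod6-only and 16.9 in Sox2-only cells. In disjoint gates the log2 fold change was 4.32, and 6.38 when cells with any UMI of the interneuron genes Gad1, Gad2, Dlx1, Dlx2, Dlx5 or Lhx6 were left out as well. Leaving out those cells was chosen after seeing the data. In WT at E12.5 and E17.5 the Sox2-only level behind the value of 6.38 was no higher than the upper bound in endothelial cells, as given below. At E12.5 this was also true of the level behind 4.32, so no exact fold can be read from either.

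Actl6b was also counted cell by cell after thinning every cell to 2000 UMIs, since deeper cells hold a UMI of any gene more often. The 1987 cells with fewer UMIs were left out. The gates were called again on the thinned counts, so that 26939 cells were Sox2-detected against 53913 before. Thinned values, here and in the tests below, therefore differ from the others in the cells of a gate as well as in depth. An Actl6b UMI was found in 21.9% of 72345 Neurod6-detected cells (95% Wilson interval 21.6 to 22.2%), in 4.79% of 20224 Eomes-detected cells and in 3.29% of 26939 Sox2-detected cells. In 579 endothelial cells, which should lack it and were chosen by at least 2 Cldn5 UMIs before thinning, the share was 1.21% (0.587 to 2.47%), a level that free RNA can give. The order of the Sox2 and Eomes gates was not the same at each stage. From the earliest to the latest stage the share was 0.567, 5.71, 3.68 and 9.96% in the Sox2 gate and 4.43, 3.50, 4.66 and 7.53% in the Eomes gate, so that the Sox2 gate was the higher at E14.5 and E17.5. In the Neurod6 gate it was 15.2, 22.8, 22.1 and 23.2%. In the Cldn5 cells it was 0 of 169 at E12.5 (95% Wilson interval up to 2.22%) and 3.08, 0.645 and 2.11% at the later stages. Both Actl6a and Actl6b UMIs were found in 5.53% of Neurod6-detected and 0.906% of Sox2-detected cells. These intervals cover counting error only. Before thinning, median depth over libraries was 5555 UMIs per cell in the Neurod6 gate, 7229 in the Sox2 gate and 13670 in the Cldn5 cells.

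Ss18 and Ss18l1 encode the related proteins SS18 and CREST, the latter a transactivator linked to calcium signalling in neurons. Ss18l1 (ENSMUSG00000039086) lies on the plus strand of chr2:180042509-180070201. Ss18 in the WT Sox2 gate was at 56.7, 65.5, 60.1 and 65.99 CPM at E17.5 and in the Neurod6 gate at 24.97, 34.3, 25.01 and 31.2. Ss18l1 went the other way, from 12.3, 17.502, 10.3 and 14.4 CPM in the Sox2 gate at E17.5 to 34.5, 45.9, 37.7 and 37.3 in the Neurod6 gate. Neither pair of gates overlapped, and each direction held in 32 of 32 libraries. Averaged over groups, edgeR gave a log2 fold change of -0.72 (SE 0.02, adjusted p = 9.3e-40) for Ss18 and 1.67 (SE 0.04, adjusted p = 2.6e-44) for Ss18l1. In disjoint gates these were -1.16 and 2.59.

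The remaining partner set holds the PHD-finger subunits: Phf10 (BAF45a) and Dpf2 (BAF45d) on the progenitor side, Dpf1 (BAF45b) and Dpf3 (BAF45c) on the neuronal side. PHD fingers of this family are known to read modified histone tails. Dpf1 (ENSMUSG00000030584, plus strand of chr7:29303951-29318243) separated cleanly. In the WT Sox2 gate at E16.0 it was at 19.6, 17.1, 22.6 and 15.9 CPM, and in the Neurod6 gate at 79.2, 76.1, 75.9 and 53.8. It was higher in the Neurod6 gate in 32 of 32 libraries, with a log2 fold change of 1.57 (SE 0.03, edgeR adjusted p = 2.7e-44).

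Dpf3 (ENSMUSG00000021221, minus strand of chr12:83213745-83487716) was the scarcest of the 10 genes in UMIs and its contrast varied with stage. In the WT Sox2 gate at E14.5 it was at 2.80, 3.49, 2.79 and 2.66 CPM and in the Neurod6 gate at 6.39, 10.1, 5.20 and 5.77. At E17.5 it was at 2.93, 3.20, 2.51 and 2.83 in the Sox2 gate and at 2.64, 1.72, 2.33 and 1.33 in the Neurod6 gate. The gates did not overlap at E14.5, where the Neurod6 gate was the higher, and overlapped at E17.5, where its mean was the lower. Averaged over groups its log2 fold change was 0.79 (SE 0.08, edgeR adjusted p = 4.7e-14), and it was higher in the Neurod6 gate in 27 of 32 libraries. The contrast within WT was 1.43 (SE 0.24) at E12.5, 1.28 (SE 0.14) at E14.5, 0.67 (SE 0.15) at E16.0 and -0.47 (SE 0.24) at E17.5, the last not called (edgeR adjusted p = 0.078). After thinning, a Dpf3 UMI was found in 0.871% of Neurod6-detected cells and in 0.691% of the 579 endothelial cells (0.269 to 1.76%). Both shares pool the stages, and whether endothelial cells express Dpf3 themselves was not tested. The comparison therefore cannot decide whether Dpf3 UMIs in single Neurod6-detected cells are expression or free RNA.

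Dpf2 (ENSMUSG00000024826, minus strand of chr19:5896516-5913010) was lower in the Neurod6 gate in 32 of 32 libraries, at 65.7 against 82.1 CPM on average. Its log2 fold change was -0.34 (SE 0.02, edgeR adjusted p = 6.9e-28). Phf10 (ENSMUSG00000023883, minus strand of chr17:14945009-14961273) was at 14.98 against 19.6 CPM and lower in 29 of 32 libraries, with a log2 fold change of -0.42 (SE 0.03, edgeR adjusted p = 1.6e-19). Within WT the Phf10 contrast was -0.67 (SE 0.08) at E12.5 and -0.17 (SE 0.09) at E17.5, where it was not called (edgeR adjusted p = 0.10).

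Smarca4 (BRG1, listed here with the progenitor partners, ENSMUSG00000032187, plus strand of chr9:21616169-21704230) was higher, not lower, in the Neurod6 gate. In WT libraries at E16.0 it was at 144, 135, 130 and 131 CPM in the Sox2 gate and at 227, 236, 219 and 220 in the Neurod6 gate. Its log2 fold change was 0.57 (SE 0.02, edgeR adjusted p = 1.1e-38), higher in 32 of 32 libraries. Smarca2 (BRM, ENSMUSG00000024921, plus strand of chr19:26605050-26778322) was higher by log2 0.86 (SE 0.02, edgeR adjusted p = 1.1e-44). Its WT values at E16.0 were 64.2, 63.2, 67.3 and 60.2 CPM in the Sox2 gate and 157, 165, 154 and 120 in the Neurod6 gate. At E12.5 the WT gap was small, from 38.7, 39.0, 38.2 and 39.7 to 48.5, 45.6, 46.4 and 44.2 CPM, although the gates did not overlap.

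The deposited counts carry no statement of strand in the sources used here, and several of these genes overlap another annotated gene. Smarca4 overlaps Gm27373, Smarca2 overlaps Gm20616 and 4931403E22Rik, Actl6a overlaps Gm37353 and Mrpl47, Phf10 overlaps 1600012H06Rik, Dpf2 overlaps Gm42067 and Dpf1 overlaps Gm44632. Gm27373 lies on the same strand as Smarca4, and the other overlapping genes just named lie on the opposite strand. Reads from Smarca4 and Gm27373 may not be told apart, nor reads from the other pairs unless they were counted by strand. Ss18 overlaps a small nuclear RNA gene on the same strand. No overlapping gene was annotated for Actl6b, Dpf3 or Ss18l1.

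**Figure D2:**
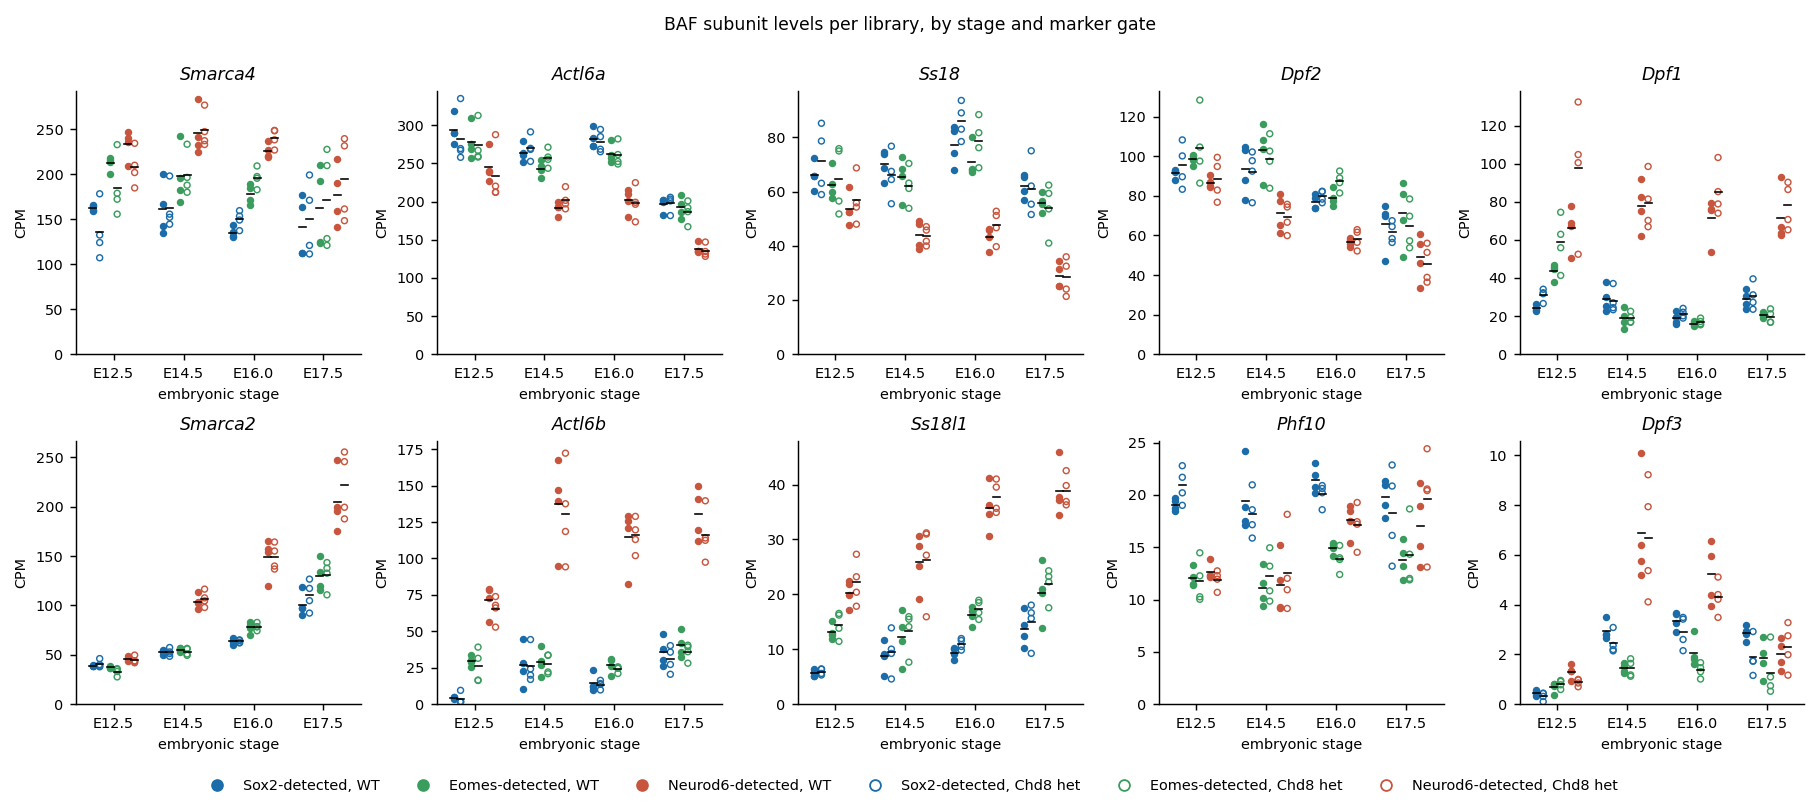
CPM of each BAF gene (y axis, 1 panel a gene, separate scales) by stage (x axis) in Sox2-detected (blue), Eomes-detected (green) and Neurod6-detected (red) cells; filled points are WT libraries, open points Chd8 het libraries and bars the means of 4 libraries. Actl6b, Ss18l1 and Dpf1 are highest in the Neurod6 gate at every stage, and Smarca2 is higher at E17.5 than at E12.5 in all gates.

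The Eomes gate was set between the other two to see at which step each partner differs. Against the Sox2 gate, Actl6b (log2 0.99, SE 0.07) and Ss18l1 (0.77, SE 0.04) were higher and Phf10 lower (-0.58, SE 0.03). For Dpf1 the average of -0.13 (SE 0.04) joins stages that differ in direction. In WT at E12.5 Dpf1 was at 44.5, 37.9, 45.5 and 47.0 CPM in the Eomes gate and at 24.4, 22.8, 23.2 and 26.3 in the Sox2 gate, where the gates did not overlap and the Eomes gate was the higher. Over all libraries it was higher in the Eomes gate in 9 and lower in 23 of 32, with means of 26.6 and 26.4 CPM, and without E12.5 its log2 fold change was -0.43 (SE 0.04). Leaving out E12.5 also moved Actl6b from 0.99 to 0.45 (SE 0.06), Dpf3 from -0.39 to -0.76 and Smarca2 from 0.14 to 0.26. All 10 passed edgeR's test, 5 higher and 5 lower, where 76.2% of all genes tested did (35.6% higher and 40.6% lower). In disjoint gates 6 of the 10 passed, beside 46% of the 15053 genes tested there, and Smarca2 turned from 0.14 to -0.38 and Dpf1 reached -0.91. Against the Eomes gate, the Neurod6 gate was higher in Dpf1 (1.70, SE 0.04), Actl6b (1.86, SE 0.06), Dpf3 (1.18, SE 0.09), Ss18l1 (0.90, SE 0.04), Smarca2 (0.72, SE 0.02), Smarca4 (0.23, SE 0.02) and Phf10 (0.16, SE 0.03), and lower in Ss18 (-0.61, SE 0.02), Dpf2 (-0.46, SE 0.02) and Actl6a (-0.37, SE 0.01). These 10 calls stood beside 78.4% of all genes tested (38.2% higher and 40.2% lower), and the Phf10 difference was not kept in disjoint gates (-0.05, edgeR adjusted p = 0.75).

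WT cells were also split into disjoint classes by the combination of gate genes. Actl6b averaged 1.29 CPM (SD 0.52, n = 4) in Sox2-only, 2.68 (SD 0.65) in Sox2 and Eomes, 45.6 (SD 17.54) in Eomes-only, 64.7 (SD 10.1) in Eomes and Neurod6 and 180 (SD 10.6) in Neurod6-only cells at E12.5. At E17.5 the same classes were at 31.8 (SD 17.7), 7.37 (SD 5.40), 16.4 (SD 5.21), 62.7 (SD 10.9) and 166 (SD 25.4). The means increased in the order of the classes at E12.5 but not at E17.5, where Sox2-only cells were above Sox2 and Eomes cells and Eomes-only cells. The Neurod6-only means differed by less than the larger SD, and the Sox2-only mean was higher at the later stage.

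Markers of other cells were also higher in the Sox2 gate at E17.5. Summed over its 6 genes, all of them detected, the interneuron list averaged 15.6 CPM (2.68 to 27.3 over the 4 WT libraries) in the Sox2 gate at E12.5 and 314 (146 to 565) at E17.5. The 4 oligodendrocyte precursor genes, also all detected, averaged 1.30 (1.09 to 1.58) and 354 (204 to 473). Of Sox2-only cells of both genotypes, 4.05% had an interneuron-marker UMI at E12.5 and 43.8% at E17.5. Without those cells Sox2-only Actl6b averaged 0.948 CPM (SD 0.38) at E12.5 and 3.48 (SD 2.61) at E17.5. Endothelial cells held 0.393 CPM of Actl6b at E12.5 (exact 95% Poisson interval 0.010 to 2.19, counting error only) and 9.05 (4.34 to 16.6) at E17.5 in WT, so the remaining Sox2-only means lie at or below the upper bounds found in cells that should lack the gene.

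Dpf1 and Dpf3 differed from Actl6b in this split. Dpf1 in Eomes and Neurod6 cells averaged 76.3 CPM (SD 8.59) at E12.5, 25.4 (SD 8.63) at E14.5 and 25.4 (SD 1.53) at E17.5, while in Neurod6-only cells it was at 119 (SD 13.97), 110 (SD 14.1) and 91.7 (SD 13.8). Dpf3 in Sox2-only cells averaged 0.486 CPM (SD 0.11) at E12.5, 3.09 (SD 0.34) at E14.5 and 4.64 (SD 0.58) at E17.5, from 6 to 19 UMIs a library. In Neurod6-only cells it was at 2.98 (SD 0.58), 9.55 (SD 3.37) and 2.02 (SD 0.66). The Sox2-only Dpf3 level was much the same without cells holding interneuron markers, at 4.91 CPM (SD 1.45) at E17.5. The classes were described with no test of their own.

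**Figure D3:**
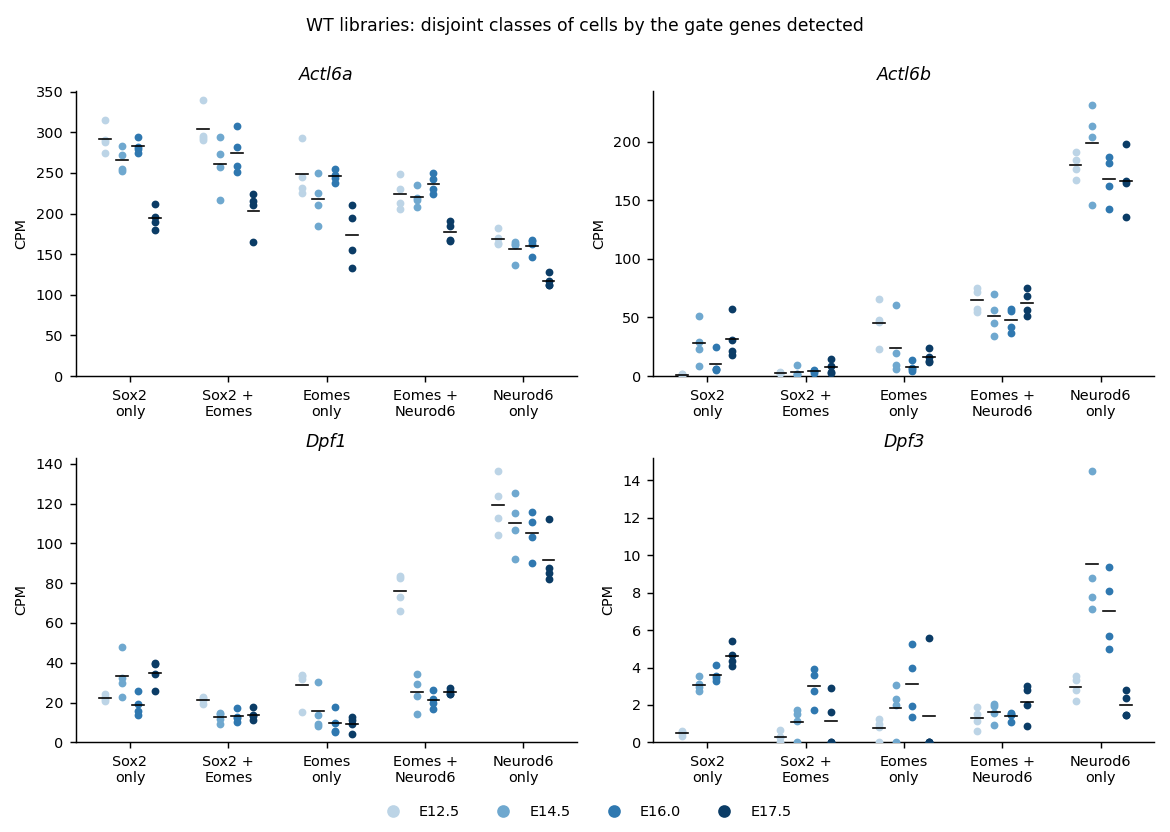
CPM (y axis, separate scales) of Actl6a, Actl6b, Dpf1 and Dpf3 in 5 disjoint classes of WT cells (x axis) defined by which gate genes were detected; points are libraries, shades mark stages from light (E12.5) to dark (E17.5), and bars are means of 4 libraries. Actl6b and Dpf1 are highest in Neurod6-only cells at every stage, and Dpf3 in Sox2-only cells is higher at the 3 later stages than at E12.5.

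The share of the neuronal partner among the UMIs of each partner set was computed per library as a description, with no test. Because 3′ counting can capture genes unequally, a share is not a ratio of protein and is compared only between gates and stages. Actl6b made up 7.36% of Actl6a and Actl6b UMIs in the Sox2 gate, 11.2% in the Eomes gate and 36.6% in the Neurod6 gate. Ss18l1 made up 12.3%, 20.2% and 41.9% of its set, and Dpf1 with Dpf3 22.0%, 20.8% and 50.3% of the 4 PHD-finger genes. The difference between the Neurod6 and Sox2 gates was 29.2 percentage points for Actl6b (pooled SD within groups 3.30), 29.6 for Ss18l1 (4.33) and 28.2 for Dpf1 with Dpf3 (4.54), and each was positive in 32 of 32 libraries. In disjoint gates these differences were 46.5, 48.8 and 40.9 points.

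The ATPase share differed. Smarca2 made up 29.9% of Smarca2 and Smarca4 UMIs in the Sox2 gate and 34.9% in the Neurod6 gate, a difference of 5.005 points (pooled SD 2.22) that was positive in 24 of 32 libraries and ranged from -8.92 to 13.5. Without E12.5 the difference was 8.10 points. The stage moved it more. In the WT Neurod6 gate the Smarca2 share was 16.6% (SD 1.11, n = 4) at E12.5, 29.8% (SD 2.96) at E14.5, 39.6% (SD 2.93) at E16.0 and 53.7% (SD 3.39) at E17.5. In the WT Sox2 gate it was 19.3% (SD 0.52), 25.1% (SD 3.76), 32.1% (SD 1.37) and 42.0% (SD 4.13). The Actl6b share of the WT Neurod6 gate went from 22.7% (SD 3.96) to 48.5% (SD 4.02) between E12.5 and E17.5, and that of Ss18l1 from 27.6% (SD 3.91) to 57.4% (SD 2.36). The cells of that gate also differed, since 67.8% of them held another gate gene at E12.5 and 23.9% at E17.5, over both genotypes. In WT Neurod6-only cells the Actl6b share was 51.5% (SD 2.704) at E12.5 and 58.4% (SD 3.94) at E17.5, and the Ss18l1 share 52.5% (SD 5.15) and 72.1% (SD 1.68). The Smarca2 share there was 19.4% (SD 1.32) and 56.3% (SD 3.56).

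**Figure D4:**
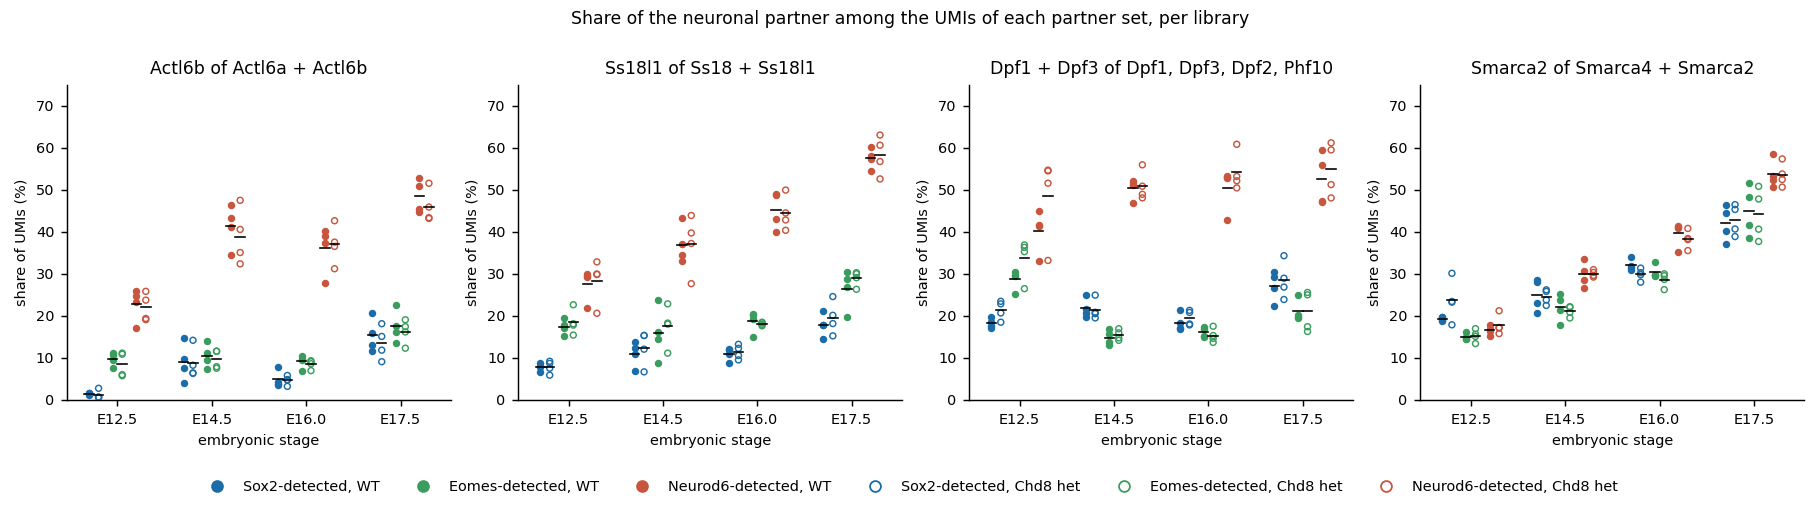
Share of the neuronal partner among the UMIs of its set (y axis, percent) by stage (x axis), 1 panel a set; colours are marker gates, filled points WT libraries, open points Chd8 het libraries and bars means of 4 libraries. In 3 of the 4 sets the Neurod6 gate stands above the others at every stage, while the mean Smarca2 share rises from each stage to the next in all 3 gates. The mean Actl6b and Ss18l1 shares are also higher at E17.5 than at E12.5 in all 3 gates.

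Stage was then compared directly, E17.5 against E12.5 in WT. Smarca2 rose in all gates. In the Neurod6 gate it went from 48.5, 45.6, 46.4 and 44.2 CPM to 247, 199, 196 and 176, and in the Sox2 gate from 38.7, 39.0, 38.2 and 39.7 to 119, 97.3, 97.0 and 90.4. No E17.5 library overlapped an E12.5 library. The log2 fold changes were 2.06 (SE 0.11, edgeR adjusted p = 2.2e-15) and 1.21 (SE 0.10, adjusted p = 6.5e-12), and 1.66 (SE 0.09) in the Eomes gate.

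Several progenitor partners fell with stage in every gate. Actl6a fell by 0.74 (SE 0.07) on the log2 scale in the Sox2 gate, by 0.66 (SE 0.07) in the Eomes gate and by 0.92 (SE 0.09) in the Neurod6 gate. Dpf2 fell by 0.64 (SE 0.11), 0.59 (SE 0.14) and 0.91 (SE 0.15) in the same order. Smarca4 fell by 0.37 (SE 0.14), 0.51 (SE 0.15) and 0.49 (SE 0.11). The Smarca4 change in the Sox2 gate rested on few libraries. WT E17.5 M1 (177 CPM) lay above the E12.5 values (159 to 166), F1 (164) lay within them, and M2 and F2 (113 each) lay below them. Without M2 its edgeR adjusted p was 0.068, without F2 0.12, without TMM scaling 0.30, after thinning 0.13, and without the 3 libraries that stood apart it fell by 0.51 (adjusted p = 0.001). Ss18 fell in the Neurod6 gate by 0.98 (SE 0.15) and in the Eomes gate by 0.29 (SE 0.12), and its change in the Sox2 gate was not called (-0.25, edgeR adjusted p = 0.057). The Eomes-gate call for Ss18 was lost without any one of WT E12.5 M2 or F1, Chd8 het E12.5 M2, or WT E17.5 M1, F1 or F2 (edgeR adjusted p 0.052 to 0.16), and without the 3 libraries that stood apart (adjusted p = 0.074). In Eomes-only cells its direction turned, to 0.24 (adjusted p = 0.52).

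Among the other neuronal partners, Actl6b rose in the Sox2 gate by log2 2.81 (SE 0.42) and in the Neurod6 gate by 0.78 (SE 0.18), and Ss18l1 by 1.13 (SE 0.22) and 0.85 (SE 0.17). Dpf3 rose in the Sox2 gate by 2.49 (SE 0.24) and in the Eomes gate by 1.28 (SE 0.36). Dpf1 fell in the Eomes gate by 1.21 (SE 0.16), from 44.5, 37.9, 45.5 and 47.0 CPM to 18.9, 22.2, 21.3 and 19.98. Ss18l1 in the Eomes gate was at 0.51 (SE 0.21, edgeR adjusted p = 0.040), a call lost without any one of WT E12.5 M1, M2 or F2 or WT E17.5 M1, M2 or F2 (adjusted p 0.058 to 0.21), and without the 3 libraries that stood apart (0.056). In all, 7 of the 10 genes were called in the Sox2 gate, 8 in the Eomes gate and 7 in the Neurod6 gate, where edgeR called 59.3%, 50.4% and 60.1% of all genes tested. Phf10 was called in none of them (edgeR adjusted p 0.11 to 0.72). After thinning, with the gates called again, Phf10 was higher at E17.5 in the Eomes gate (0.84, edgeR adjusted p = 0.024) and in the Neurod6 gate (0.94, adjusted p = 0.0044).

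Part of these stage changes was not kept in disjoint gates. In Neurod6-only cells Actl6b differed by -0.21 (edgeR adjusted p = 0.30) and Ss18l1 by 0.25 (0.17), Dpf1 fell by 0.47 (adjusted p = 0.007) and Phf10 rose by 0.66 (adjusted p = 0.026). Smarca2 rose by 1.72 there, and Actl6a, Dpf2, Smarca4 and Ss18 fell by 0.63, 0.65, 0.70 and 0.99. These 7 calls of 10 stood beside 51.6% of all genes tested. In Eomes-only cells 9 of the 10 genes could be tested, without Dpf3, and 4 were called, beside 19.1% of 7608 genes. Eomes-only sums were small, from as few as 86 cells in a WT library at E12.5 and 31 at E17.5, and the part of depth was not tested. Smarca2 rose there by 1.41, and Dpf1, Actl6a and Smarca4 fell by 1.67, 0.62 and 0.55. In Sox2-only cells without interneuron markers 7 of the 10 genes were called, beside 53.5% of the 12392 genes tested there. Smarca2 rose by 0.65, Dpf1 fell by 0.79 (edgeR adjusted p = 0.0001) and Ss18l1 differed by 0.21 (adjusted p = 0.58). Actl6b (1.70, adjusted p = 0.013) and Dpf3 (3.20) were also among the calls, at levels no higher than the upper bounds in endothelial cells of the same stage. The WT endothelial level itself went from 0.393 to 9.05 CPM for Actl6b, so expression in these Sox2-only cells cannot be read from that call. For Dpf3 it went from 0.393 (exact 95% Poisson interval 0.010 to 2.19) to 4.53 (1.47 to 10.6), the last from 5 UMIs. Over all cells of the WT libraries Dpf3 averaged 2.44 CPM (SD 0.66, n = 4) at E17.5. The endothelial value lay above that mean, with an interval that holds it, so it sets no clear bound for free RNA of Dpf3. Whether endothelial cells express Dpf3 was not tested. Oligodendrocyte precursor markers moved with stage in the Sox2 gate as given above, and their part in the Sox2-gate changes was not tested.

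Whether the gap between gates itself changed with stage was tested as a contrast of contrasts. From E12.5 to E17.5, over both genotypes, the Neurod6 to Sox2 difference shrank for Actl6b (-2.004, SE 0.19) and Dpf3 (-1.39, SE 0.28) and grew for Smarca2 (0.94, SE 0.05). For Ss18 (-0.69, SE 0.06), Dpf2 (-0.23, SE 0.05) and Actl6a (-0.14, SE 0.03) the Neurod6 level lay further below the Sox2 level at E17.5, and for Phf10 (0.73, SE 0.09) it came closer. With Ss18l1 (-0.27, SE 0.11, edgeR adjusted p = 0.026) this made 8 of 10 calls, beside 60.8% of all genes tested. Smarca4 (-0.10, edgeR adjusted p = 0.056) and Dpf1 (-0.05, adjusted p = 0.67) were not called. The Dpf1 value depended on the cells taken, at -0.88 in disjoint gates and 0.40 when cells with interneuron markers were also left out. The Ss18l1 call was lost without the E12.5 libraries of M1, F1 or F2 or the E17.5 libraries of M2 or F1 (adjusted p 0.057 to 0.15) and without the 3 libraries that stood apart (0.052). In disjoint gates the Actl6b change was -4.53 and, without interneuron markers, -2.01. The WT Sox2-only levels at E12.5 behind both values lay below the upper bound in endothelial cells, so no exact change can be read from them. The direction of Actl6a and Dpf2 did not hold across these cells. Actl6a was at 0.16 (edgeR adjusted p = 0.064) in disjoint gates, 0.17 without interneuron markers and 0.040 after thinning, and Dpf2 at -0.035 (adjusted p = 0.79) and 0.063 in the first 2 of these. The change of Dpf3 was -2.79 in disjoint gates, and -1.57 after thinning, where it was not called (adjusted p = 0.090). Ss18l1 was at -0.82 in disjoint gates, 0.080 without interneuron markers and -1.34 after thinning. Thinning, which changes the cells of each gate as well as depth, also gave calls for Dpf1 (-1.10) and Smarca4 (-0.33).

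Genotype was compared within each gate to see whether Chd8 heterozygosity changed the partner subunits. None of the 10 genes was called in any gate when averaged over stages. EdgeR called 0.557% of all genes tested in the Sox2 gate, 0.343% in the Eomes gate and 0.240% in the Neurod6 gate, and at an unadjusted p under 0.05 it found 1, 0 and 1 of the 10, beside 8.89%, 9.27% and 5.77% of all genes tested. DESeq2 also called none of them. The estimates ran from -0.31 (Dpf3, Sox2 gate) to 0.25 (Dpf1, Neurod6 gate). For Actl6a the approximate 95% interval was -0.07 to 0.08 in the Sox2 gate and -0.09 to 0.08 in the Neurod6 gate. For Actl6b it was wider, -0.54 to 0.29 and -0.27 to 0.10.

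**Figure D5:**
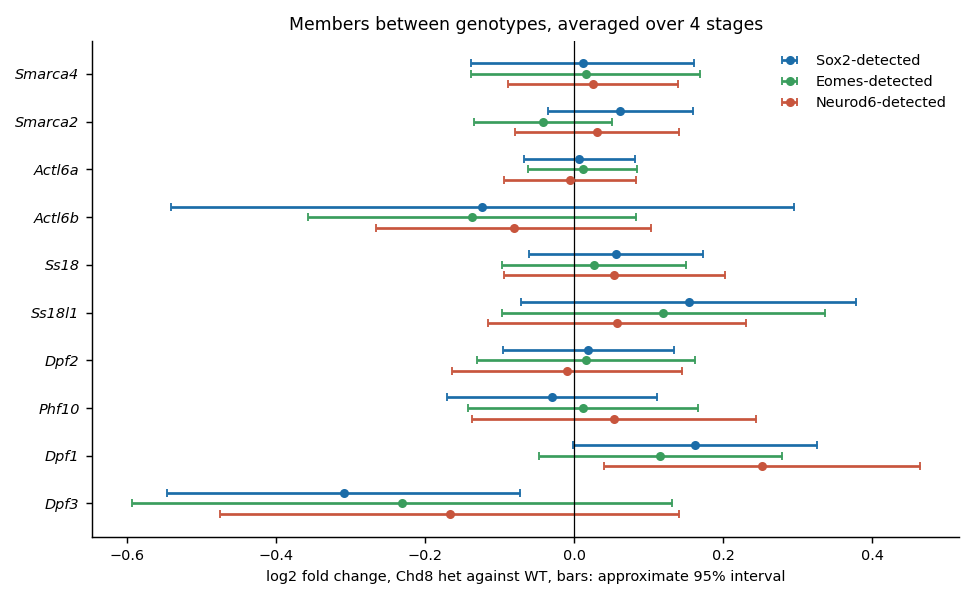
Log2 fold change of Chd8 het against WT (x axis) for the 10 BAF genes (y axis), averaged over 4 stages in Sox2-detected (blue), Eomes-detected (green) and Neurod6-detected (red) cells; points are edgeR estimates and bars approximate 95% intervals, unadjusted. Intervals reach farthest for Actl6b and Dpf3, and those of Dpf1 in the Neurod6 gate and Dpf3 in the Sox2 gate do not cross 0 although neither gene was called after adjustment.

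Dpf1 at E12.5 came closest to a call. In the Neurod6 gate WT libraries were at 68.8, 50.5, 67.2 and 77.9 CPM and Chd8 het libraries at 101, 52.4, 132 and 105. In the Sox2 gate they were at 24.4, 22.8, 23.2 and 26.3 and at 32.2, 26.6, 34.1 and 31.8. Chd8 het M1, F1 and F2 lay above all WT libraries in both gates, and Chd8 het M2 lay within the WT range in the Neurod6 gate and above it only narrowly in the Sox2 gate. Chd8 het M2 and WT M2 carry a different prefix in the submitters' sample descriptions from the other 6 libraries of E12.5, and the 3 high libraries are the shallow ones named above. The part of depth in the difference was not tested beyond thinning, which also changes the cells of a gate. After it the log2 fold change was 0.62 (edgeR adjusted p = 0.24) in the Neurod6 gate and 0.72 (0.20) in the Sox2 gate. The make-up of the Neurod6 gate differed too. Cells with another gate gene were 598 of 963, 418 of 1010 and 688 of 1174 in Chd8 het M1, F1 and F2, and 1629 of 2056 in M2. In WT M1, M2, F1 and F2 they were 1094 of 1668, 1000 of 1295, 948 of 1322 and 818 of 1125. The part of this was not tested beyond the disjoint gates below.

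The edgeR log2 fold change of Dpf1 at E12.5 was 0.46 (adjusted p = 0.10) in the Sox2 gate, 0.51 (adjusted p = 0.083) in the Eomes gate and 0.68 (adjusted p = 0.15) in the Neurod6 gate, higher in 4 of 4 matched numbers in each. At that stage edgeR called 1.43%, 0.435% and 0.00686% of all genes tested. DESeq2 called Dpf1 in the Sox2 gate (adjusted p = 0.035) and in the Neurod6 gate (0.025), where it called 947 of 13818 and 382 of 14571 genes tested. Chd8 het M2 had the lowest Dpf1 of the Chd8 het libraries in the Sox2 and Neurod6 gates, and without it edgeR called Dpf1 in all gates (adjusted p = 0.021, 0.0021 and 0.0019). The share of all genes called without that library is not given for this stage. Averaged over stages, leaving it out raised the number of all genes called in each gate, as given below. Nothing particular to Dpf1 can therefore be read from these calls. In disjoint gates the values were 0.43 (adjusted p = 0.27) in Sox2-only, -0.05 in Eomes-only and 0.37 (0.27) in Neurod6-only cells. Over the 12 contrasts of 1 stage and 1 gate, edgeR without a pair term called no BAF gene of the 10. At an unadjusted p under 0.05 it found 1 of the 10 at E12.5 in the Sox2, Eomes and Neurod6 gates and at E17.5 in the Sox2 gate, beside 18.3%, 15.3%, 12.7% and 5.8% of all genes tested. The labels state that embryos were litter-matched but not that equal numbers mark a pair, although same-numbered libraries share a description prefix. With the same-numbered pair as a block, edgeR called Dpf1 at E12.5 in all 3 gates (adjusted p = 0.0076, 0.021 and 0.021), beside 14.4%, 6.9% and 4.65% of all genes tested. At the later stages edgeR called 0.0217% of all genes tested at E16.0 in the Sox2 gate, 0.00763% at E16.0 and 0.0153% at E17.5 in the Eomes gate, and 0% in the other 6 contrasts.

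The difference between gates was also set against genotype. Averaged over stages the Neurod6 to Sox2 difference changed with genotype by -0.12 (Ss18l1) to 0.13 (Dpf3, SE 0.16). EdgeR called 0 of 15193 genes (0%), with 746 (4.91%) at an unadjusted p under 0.05, none of them among the 10, and DESeq2 called 1 gene, also not among them. For Actl6b the change was 0.02 with an SE of 0.13.

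The other BAF genes, a list of 20 shared or alternative subunits, were counted in the same contrasts. In the Neurod6 gate 17 were higher and 2 lower than in the Sox2 gate, beside 43.9% and 44.4% of all genes tested, with a median log2 fold change of 0.31 against 0.00 over all genes tested. The highest were Bcl11b (2.24, SE 0.06), a cortical transcription factor that was also used here as a neuronal marker, its relative Bcl11a (1.40, SE 0.02) and Bcl7a (0.96, SE 0.02). Bcl7c (-0.66, SE 0.02) and Brd7 (-0.22, SE 0.01), a bromodomain subunit of the PBAF form, were lower. In the Eomes gate 15 were higher and 2 lower than in the Sox2 gate, beside 35.6% and 40.6% of all genes tested. In the Neurod6 gate 10 were higher and 6 lower than in the Eomes gate, beside 38.2% and 40.2%, with a median of 0.04. From E12.5 to E17.5 in WT, 8 of the 20 rose and 3 fell in the Sox2 gate, where 32% of all genes tested rose and 27.4% fell. In the Eomes gate 7 rose and 4 fell, beside 25.8% and 24.6% of all genes tested, and in the Neurod6 gate 9 rose and 4 fell, beside 31.9% and 28.2%. Bicra and Bicral, subunits of the GBAF form, rose most in the Neurod6 gate (1.42, SE 0.19, and 1.44, SE 0.17), and Bcl11b (-1.26, SE 0.22) and Smarcd2 (-0.91, SE 0.15) fell most. None of the 20 was called between genotypes in any gate by edgeR.

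The genes whose levels followed the partners most closely were named by Pearson's r of mean log2(CPM + 1) over the 24 groups of gate, genotype and stage, among 6283 genes with a mean of at least 20 CPM. Groups of 1 stage share embryos, and the gates share cells, so r is a description. For Actl6a they were Ddx39b (r = 0.982), Sf3a3 (0.978) and Eif4a3 (0.977), which encode RNA splicing and export factors. For Actl6b they were Fam57b (0.989), Dpysl3 (0.984) and Snap25 (0.978), the last a protein of synaptic vesicle fusion. For Dpf1 they were Reep1 (0.963), Sh3bgrl3 (0.948) and Acot7 (0.946). For Dpf3 r was lower: 0.891 for Reep2, 0.882 for Tmem50b and 0.873 for Ctsb.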

How the data were processed

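Counts are UMIs per gene and cell of 10x Genomics 3′ libraries (v2 chemistry, per the labels' protocols), deposited by the authors as 1 unnormalized matrix a library. STAR 2.7.9a, STARsolo, Cell Ranger and build mm10 are named in the submitters' processing notes; the strand setting and annotation are not stated there. Of 145082 barcodes, 143697 had at least 1000 UMIs, 500 genes and at most 10% mitochondrial UMIs, and 5471 were removed as doublets by a score against simulated doublets (1.96 to 5.91% a library). Libraries held 2399 to 6951 retained cells. UMIs were summed per library and gate and tested with edgeR 4.0.16 (TMM, filterByExpr, glmQLFit, glmQLFTest; R 4.3.3), Benjamini-Hochberg over all genes tested, threshold 0.05. Gate contrasts used 96 sums with the library as a block, and stage and genotype contrasts the 8 groups of a gate. DESeq2 1.42.0 was an alternative. The fit was tested on simulated data. The SE is the absolute log2 fold change over the square root of F. All 10 genes passed the filter in every fit of the full gates. Named genes are all 10, up to 3 other BAF genes called each way in a contrast by size, and the 3 genes most like Actl6a, Actl6b, Dpf1 and Dpf3. The members and lists were chosen with earlier results of these data known. Coordinates and UTRs are from GENCODE M21 (GRCm38, the same assembly as mm10), which held 99.6% of the gene identifiers.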

Additional observations from a re-analysis of the deposited data

Results flagged for a closer look

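In 11 of 240 groups of 4 libraries (10 genes, 3 gates, 8 groups) 1 library lay apart from the other 3, by a gap that took up most of the group's range (Dixon's test for 4 values); chance flags about 1 in 20 groups. Chd8 het E12.5 M2 was high in Actl6a in the Sox2 gate (335 CPM, others 258 to 269), the Eomes gate (313 CPM, others 258 to 267) and the Neurod6 gate (288 CPM, others 212 to 220), and in Actl6b in the Sox2 gate (9.52 CPM, others 1.57 to 1.78). WT E16.0 F2 was low in the Neurod6 gate in Actl6b (82.5 CPM, others 121 to 129) and Dpf1 (53.8 CPM, others 75.9 to 79.2). WT E17.5 M2 was low in Actl6a in the Sox2 gate (183 CPM, others 200 to 202), WT E17.5 F2 high in Actl6a in the Neurod6 gate (148 CPM, others 134 to 135) and WT E17.5 F1 high in Dpf1 there (92.9 CPM, others 62.7 to 66.7). WT E12.5 M2 was high in Phf10 in the Neurod6 gate (13.9 CPM, others 12.2 to 12.3), and WT E16.0 M1 high in Ss18 in the Eomes gate (80.1 CPM, others 67.1 to 68.3).

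The Neurod6 to Sox2 difference changed between E12.5 and E17.5, by edgeR's test of that change, in 8 of the 10 genes, beside 60.8% of all genes tested. These were Actl6b (log2 -2.004), Dpf3 (-1.39), Smarca2 (0.94), Phf10 (0.73), Ss18 (-0.69), Ss18l1 (-0.27), Dpf2 (-0.23) and Actl6a (-0.14). For Ss18l1, Dpf2 and Actl6a the direction did not hold in every setting, and their calls were lost without the library as a block. Interneuron and oligodendrocyte precursor markers of the Sox2 gate moved with stage too, as given with the results, and their part was not tested except by leaving out cells with interneuron markers.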

How the results depend on the processing

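Other settings were counted for the gate, stage and change-of-difference values of the BAF genes that were called, and for Chd8 het against WT of Dpf1 at E12.5 and of Dpf3 in the Sox2 gate, not for other uncalled values. Of these 665 values 608 kept direction and side of the threshold, 36 lost the call, 5 gained it and 16 changed sign; in 1440 leave-outs these counts were 1418, 19, 3 and 0. Gate contrasts left out 16 matched pairs rather than single libraries. Depth limits Dpf3, which rested on 6 to 19 UMIs a library in WT Sox2-only cells. Eomes-only sums were also small, with as few as 14 cells in a Chd8 het library at E17.5. The cause of each change below was not tested.

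In disjoint gates 6 of 10 genes were called between Eomes and Sox2 (6931 genes in all or 46%), and 8 of 10 also without cells holding interneuron markers (7167 or 48.2%). Between stages in the Eomes gate 4 of the 9 tested were called in disjoint gates (1455 genes or 19.1%). Without those cells 3 of 8 were called (1512 or 20.2%), and thinning gave 3761 genes in all. Signs changed in disjoint gates, with the value also without interneuron markers second: Smarca2, Eomes against Sox2, -0.38 and -0.28; Phf10, Neurod6 against Eomes, -0.049 and -0.086; Actl6a, change of the gate difference, 0.16 and 0.17 (thinned 0.040); Ss18, stage in the Eomes gate, 0.24 and 0.26; Actl6b, stage in the Neurod6 gate, -0.21 and -0.21; Dpf1, Chd8 het against WT in the Eomes gate at E12.5, -0.046 and -0.13. Ss18, Eomes against Sox2, turned to 0.030 in disjoint gates only, and the changes of the gate difference of Dpf2 (0.063) and Ss18l1 (0.080) only without interneuron markers. Thinning gave 5622 genes for that change.

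The neuronal share rose by 46.5 points for Actl6b, 40.9 for Dpf1 and Dpf3 and 48.8 for Ss18l1 in disjoint gates, by 52.1, 47.2 and 52.4 also without interneuron markers, and by 36.6, 35.1 and 37.3 with gates at 2 UMIs. For Smarca2 it was 8.10 without E12.5.

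Genes called between genotypes in the Sox2, Eomes and Neurod6 gates numbered 126, 76 and 63 by DESeq2, 14, 0 and 11 in disjoint gates, 19, 0 and 12 also without interneuron markers, 5, 3 and 5 thinned, and 16, 13 and 10 without E12.5. With no filter on low counts they were 26 and 24 in the Sox2 and Eomes gates, and with gates at 2 UMIs 35 in the Sox2 gate. Leaving out 1 library gave 39 to 122, 30 to 185 and 25 to 57, with 122, 185 and 57 without Chd8 het E12.5 M2 and 39 to 51 in the Sox2 gate without any one of WT E12.5 M1, F1 or F2, Chd8 het E12.5 M1, WT E14.5 M1 or M2, Chd8 het E14.5 M2, WT E16.0 F1, Chd8 het E16.0 M1, F1 or F2, or WT E17.5 M2, against 77 with all libraries. Genes whose gate difference changed with genotype numbered 1 by DESeq2, in disjoint gates, also without interneuron markers, without TMM and without E12.5, 5 with gates at 2 UMIs, and 0 to 2 over leave-outs. Calls of the 10 genes at a single stage numbered 2 by DESeq2, both Dpf1 at E12.5. DESeq2 called 947 of 13818 genes at that stage in the Sox2 gate and 382 of 14571 in the Neurod6 gate. Over leave-outs calls of the 10 genes numbered 0 to 4, with 4 without Chd8 het E12.5 M2, among them Dpf1 at E12.5 in all gates. Shares of all genes at single stages are not given for the leave-outs, so nothing particular to the 10 genes can be read from these counts.

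The labels do not say that equal replicate numbers mark a matched pair. Same-numbered libraries correlated above 0.1 in 15, 15 and 16 of 16 pairs in the Sox2, Eomes and Neurod6 gates, and best with their own number in 11, 12 and 14. With the pair as a replicate block, 226, 176 and 113 genes were called between genotypes, none of the 10 averaged over stages, and 3 calls at a single stage, all Dpf1 at E12.5 (edgeR adjusted p = 0.0076, 0.021 and 0.021). Without the library as a replicate block, 5 of 10 genes (5144 in all) were called for the change of the gate difference, losing Actl6a, Dpf2 and Ss18l1, and Dpf1 was lost between Eomes and Sox2 (edgeR adjusted p = 0.12). Within WT the Neurod6 to Sox2 calls of Dpf2 (adjusted p = 0.39) and Smarca2 (0.11) at E12.5 and of Phf10 (0.099) at E16.0 were lost too.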
